A study of Mus musculus with 12 samples.

Results

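The genes described here encode the constitutive proteasome with its activators, its inhibitor and its assembly factors. They are the protein-coding mouse genes whose symbol begins with Psm, a letter from a to g and a digit, without the interferon-inducible catalytic subunits Psmb8, Psmb9 and Psmb10. The rule found 47 members among the 54232 genes of the count table. They comprise 8 subunits of the 20S alpha ring, 8 of the 20S beta ring, 9 of the 19S base, 8 of the 19S lid, 5 activators, 1 inhibitor and 7 assembly factors. The remaining 1, Psmc3ip, shares the start of its name with Psmc3 but encodes a protein of meiotic recombination and is no proteasome gene. Psma8, the testis form of an alpha subunit, and Psmb11, the thymus form of a beta subunit, had 0 counts in all 12 libraries, so 45 members passed the filter on low counts and were tested.

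The proteasome degrades proteins that carry ubiquitin chains. Its barrel, the 20S core, stacks rings of alpha and beta subunits, and the beta subunits Psmb5, Psmb6 and Psmb7 hold the catalytic sites inside. The 19S cap on its ends has a base, where the ATPases Psmc1 to Psmc6 unfold the substrate, and a lid, where Psmd14 removes the ubiquitin chain. Neurons use the proteasome for protein quality control and for turnover in axons and at synapses, and severed axons are cleared in part through it.

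RNA was sequenced from fluorescent retinal cells of wild-type mice, all adult males, whose optic nerve had been crushed, which injures the axons of retinal ganglion cells. The vitreous had received AAV2 that carried Olig1, a transcription factor of the oligodendrocyte lineage, or GFP as the control. The groups were Olig1 day 7, GFP day 7, Olig1 day 14 and GFP day 14 after the crush, with 3 libraries each, and every group carried virus and crush, so there was no uninjured group. Cells were enriched with CD90.2 beads and picked in pools whose stated size lies between 10 and 20 cells, and cDNA was amplified with 20 PCR cycles. The labels give 14 days of virus for every library, and they do not give the promoter of the vector or say which libraries come from separate animals. Library batches are mentioned but not assigned to samples, and the part of batch in each p-value was not tested. The p-values therefore rest on differences between libraries that could be technical alone.

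Total counts ran from 12534515 to 27602459 per library, and the floor of 3 counts lay between 0.109 and 0.239 CPM, the counts of a gene scaled to 1e6 per library. Floors cover counting error only. The pools are labelled as ganglion cells, but the 12 ganglion cell markers summed to 2447 to 4732 CPM in Olig1 day 7 libraries, against 70.1 to 311 CPM in GFP day 7 libraries. At day 14 they summed, from low to high, to 163, 175 and 3359 CPM in Olig1 libraries, against 89.8 to 236 CPM in GFP libraries. Pou4f3 was at 0 in every library, Pou4f2 in all GFP libraries of both days, and Slc17a6 and Pou4f1 in all GFP day 14 libraries. The 12 rod markers, all detected in every library, summed to 698 to 1450 CPM in Olig1 day 7 libraries and 13993 to 65047 CPM in GFP day 7 libraries, and to 1287 to 14760 CPM and 4988 to 65786 CPM at day 14. The 10 Müller glia markers summed to at least 46927 CPM in every library. The part of these markers in the proteasome results was not tested, and in such pools fewer cells of a type and less RNA per cell cannot be told apart.

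Proteasome transcripts made up a small share of each library, and the lowest shares were those of the GFP day 7 pools. The 47 genes held 0.953%, 0.786% and 0.856% of all counts in Olig1 day 7 libraries, against 0.559%, 0.464% and 0.490% in GFP day 7 libraries. At day 14 they held 0.760%, 1.23% and 0.713% in Olig1 libraries, against 0.789%, 0.716% and 0.666% in GFP libraries. All 3 GFP day 7 libraries lay below each of the other 9, and Olig1 day 14 replicate 2 lay above the rest. The group means were 0.865 ± 0.0839% for Olig1 day 7, 0.504 ± 0.0490% for GFP day 7, 0.900 ± 0.285% for Olig1 day 14 and 0.724 ± 0.0619% for GFP day 14 (SD, n = 3 each). In 10 of 12 libraries every one of the 43 widely expressed members (without Psma8, Psmb11, Psmc3ip and the retrogene Psme2b) had at least 1 count. GFP day 14 replicate 1, which had the fewest genes detected of all libraries (10129), had 0 counts of the lid subunit Psmd13, the activator Psme3, the inhibitor Psmf1 and the assembly factor Psmd10, and GFP day 7 replicate 3 had 0 counts of Psmg1.

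**Figure D1:**
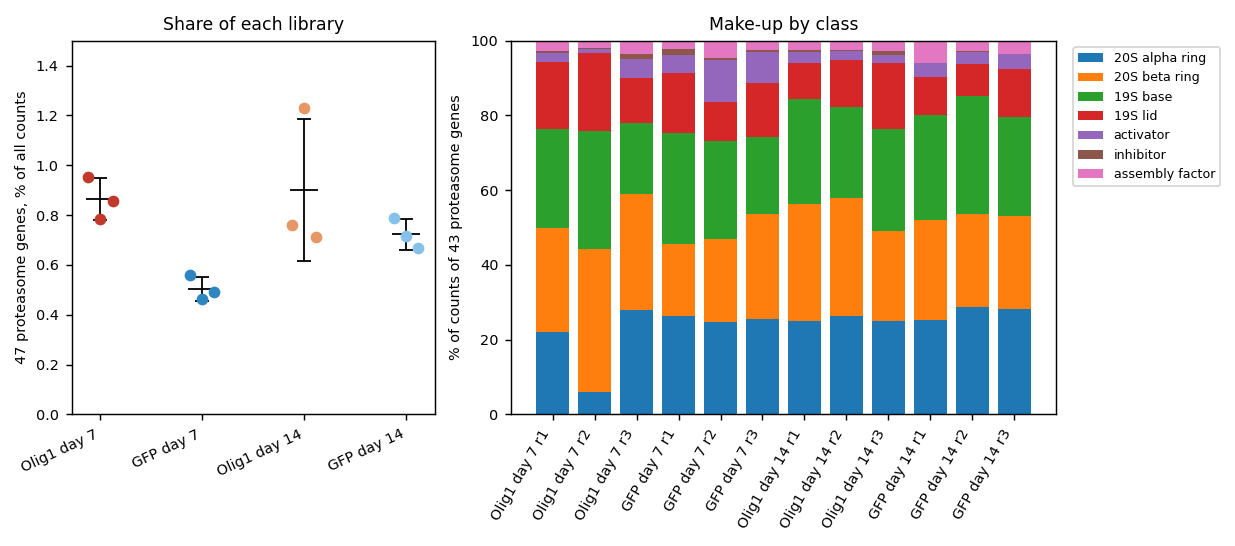
Share of all counts held by the 47 proteasome genes (left, % of library; points are libraries, bars the mean ± SD of 3) and the make-up of the counts of 43 widely expressed proteasome genes by class (right, % of their counts, 1 bar per library, r = replicate). The GFP day 7 libraries lie at 0.464% to 0.559%, below all others, and the alpha ring takes 6.06% in Olig1 day 7 replicate 2 and at least 22.2% in the other 11 libraries.

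The members were expressed at widely different levels. Levels are compared between genes as CPM per kb of exon, averaged over the 12 libraries. The length is the union of a gene's exons, which can exceed that of its longest coding transcript. It was 1872 against 798 bases for Psmb6, 1204 against 859 for Psmb2 and 3421 against 1160 for Psmb7. For Psmb5 it was 899 by either length. The order of genes and the size of the gaps between them can therefore depend on the length used. In the alpha ring the levels ran from 45.9 CPM per kb for Psma4 to 161 CPM per kb for Psma7, the alpha4 subunit. In the beta ring Psmb2, the beta4 subunit without a catalytic site, had 382 CPM per kb, Psmb6 (beta1, caspase-like site) had 366 and Psmb5 (beta5, chymotrypsin-like site) had 202. Psmb7, which carries the trypsin-like site of beta2, had 4.63 CPM per kb, the lowest of the beta ring. Per library Psmb7 stood at 13.5, 4.79 and 3.85 CPM in Olig1 day 7, against 5.01, 4.76 and 20.4 CPM in GFP day 7, and at 11.7, 25.5 and 28.9 CPM in Olig1 day 14, against 17.0, 12.6 and 41.9 CPM in GFP day 14. It was therefore low in every pool, although the 3 catalytic subunits are present in equal number in the constitutive core. Its exons share 405 bases with Nek6 on the opposite strand, and the strand setting of the counting is not given in the sources used here.

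The base ATPase Psmc5 had the highest level of the cap, at 255 CPM per kb, and the scaffold subunit Psmd1 the lowest of the base, at 14.3. The lid was lower, from 9.28 CPM per kb for Psmd13 to 71.0 for Psmd8. Among the activators, Psme1 and Psme2, which form the interferon-inducible PA28 ring, had 70.0 and 44.1 CPM per kb, and Psme4, the PA200 activator, had 3.25. Psmf1, which inhibits the core in vitro, had 6.94. Assembly factors ranged from 4.59 for Psmd9, a chaperone of the base, to 40.8 for Psmg4, a chaperone of the alpha ring. Psmc3ip, the gene that is no subunit, averaged 1.57 CPM per kb and had 0 counts in 5 of 12 libraries. Neighbours in these orders lie within each other's spread between libraries in most cases.

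The lowest members of the alpha ring and base, and several at the ends of the other classes, overlapped between Olig1 and GFP pools at day 7. Psma4 had 105, 32.6 and 155 CPM in Olig1 day 7 libraries, against 149, 92.7 and 44.7 CPM in GFP day 7 libraries. Psmd1 had 212, 48.3 and 83.1 CPM in Olig1 day 7 libraries, against 79.5, 158 and 35.9 CPM in GFP day 7 libraries. In both genes Olig1 libraries lay on either side of GFP libraries. At day 14 Psma4 had 108, 132 and 184 CPM in Olig1 libraries, against 98.9, 102 and 103 CPM in GFP libraries, and Psmd1 had 81.2, 137 and 143 CPM in Olig1 libraries, against 137, 68.9 and 66.0 CPM in GFP libraries. Psma4 was then separate, by a narrow gap that was lost on TMM sizes (log2 fold change 0.43 ± 0.59), and Psmd1 was not.

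In the lid, Psmd8 had 197, 232 and 203 CPM in Olig1 day 7 libraries, against 263, 118 and 27.04 CPM in GFP day 7 libraries, and 195, 233 and 414 CPM in Olig1 day 14 libraries, against 360, 106 and 254 CPM in GFP day 14 libraries. Psmd13 had 95.0, 17.8 and 33.4 CPM in Olig1 day 7 libraries, against 17.0, 8.05 and 23.6 CPM in GFP day 7 libraries, and 29.7, 64.5 and 31.8 CPM in Olig1 day 14 libraries, against 0, 32.6 and 22.5 CPM in GFP day 14 libraries. Both genes overlapped between Olig1 and GFP at each day. Psme4 had 52.4, 13.9 and 34.9 CPM in Olig1 day 7 libraries, against 17.5, 22.2 and 88.6 CPM in GFP day 7 libraries, and 4.31, 5.74 and 21.9 CPM in Olig1 day 14 libraries, against 28.7, 20.4 and 16.8 CPM in GFP day 14 libraries. Psmd9 had 31.3, 7.50 and 47.9 CPM in Olig1 day 7 libraries, against 15.9, 32.5 and 34.5 CPM in GFP day 7 libraries, and 34.5, 0.367 and 53.3 CPM in Olig1 day 14 libraries, against 57.7, 41.2 and 42.96 CPM in GFP day 14 libraries. The value of 0.367 CPM stood far below the other 11 libraries of Psmd9. Exons of Psmd9 share 1849 bases with a non-coding gene on the opposite strand. This overlap is the same for every library, and the non-coding gene had 0 counts over the 12 libraries.

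**Figure D2:**
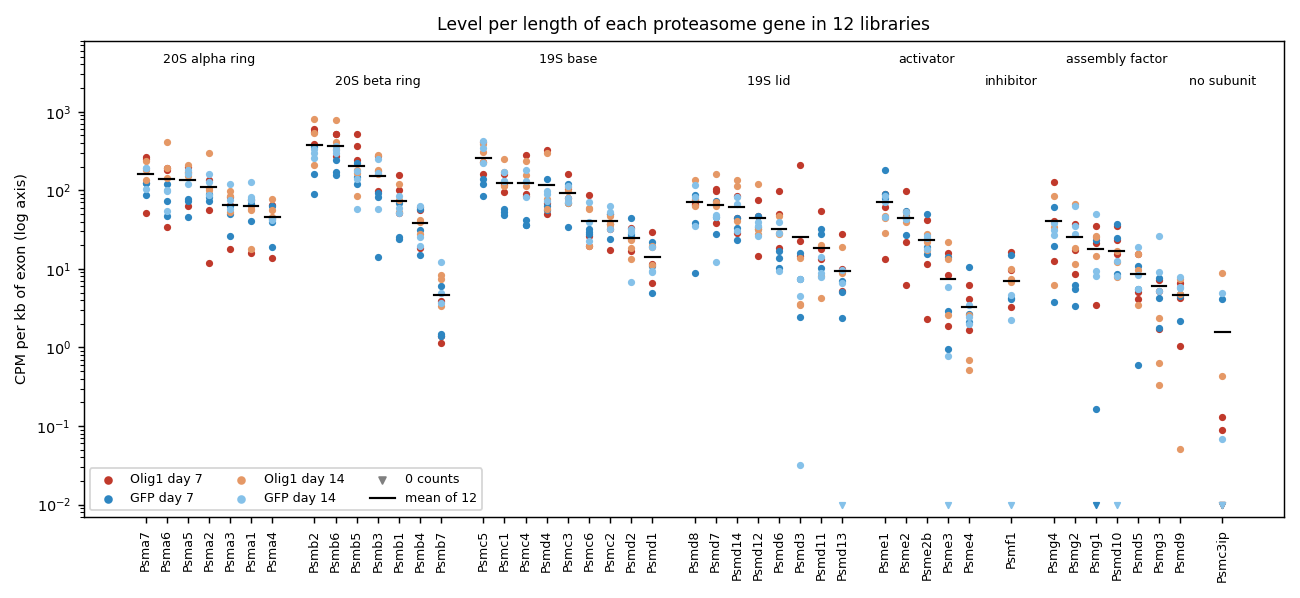
Level of each tested proteasome gene in CPM per kb of exon (log axis) in the 12 libraries, by class and in falling order of the mean (black line); points are libraries coloured by group and triangles at the bottom mark 0 counts. Psmb7 averages 4.63 CPM per kb beside 202 and 366 for the other catalytic subunits, and assembly factors spread more widely than the ATPases of the base. The exon union of Psmb7 is 3421 bases and its longest coding transcript 1160, so the size of its gap depends on the length used.

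Spread between libraries of a group was smallest for the core and base among the classes. The biological coefficient of variation, edgeR's estimate of spread between libraries of a group beyond counting error, had a median of 0.685 over the 45 members and of 1.34 over all 14985 genes tested. The coefficient falls with abundance, and the 23 members in the middle of the members' range of levels had a median of 0.673, against 0.745 for 2532 genes in the same range. Among members it was smallest for Psmc5, at 0.563. The class medians were 0.637 for the base, 0.645 for the alpha ring, 0.646 for the beta ring, 0.697 for the lid, 0.862 for activators and 0.978 for assembly factors. The ratio of the highest to the lowest library had a median of 5.16 over the 9 base subunits and ranged from 3.62 for Psmc2 to 7.60 for Psmc4.

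**Figure D3:**
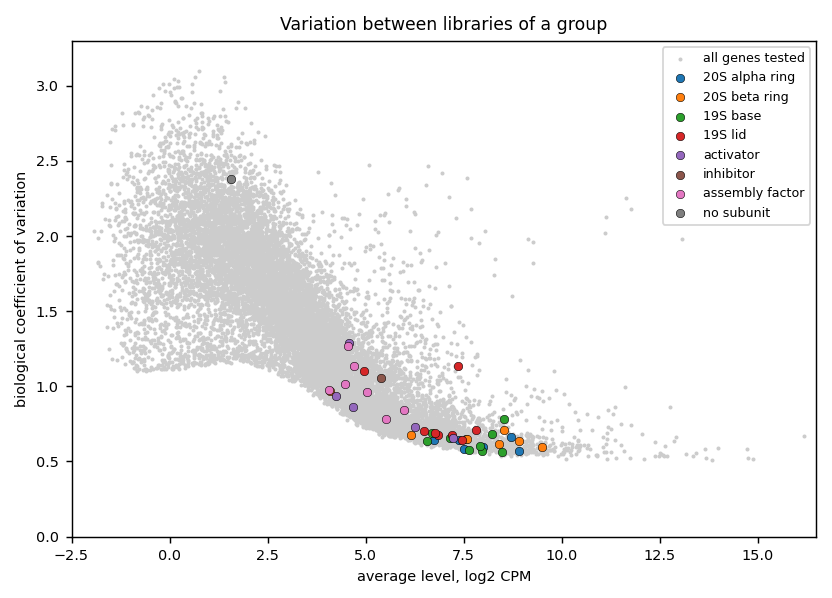
Biological coefficient of variation against average level (log2 CPM) for all 14985 genes tested (grey) and the 45 tested proteasome genes, coloured by class. The 23 members in the middle of the members' levels have a median of 0.673, against 0.745 for all genes in that range. Psmd3 (1.13) stands above the other lid genes of its level, and Psmc3ip (2.38) lies highest.

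A pair of libraries stood apart in these genes. In Olig1 day 7 replicate 2 the alpha ring held 6.06% of the members' counts, against 22.2% to 28.8% in the other 11 libraries, and 6 of its 7 expressed subunits (all but Psma5) were lowest there. Psma2 stood at 43.4 CPM in that library, against 206 and 498 CPM in the other Olig1 day 7 libraries. The same library had the highest Psmb5, Psmc4, Psmd4 and Psmd3 of all 12. Psmd3, the lid subunit Rpn3, reached 1042 CPM there, or 13.25% of the members' summed CPM, while the next highest library had 111 CPM. Its factor for library composition (TMM) was 0.676, the lowest of the 12. Olig1 day 14 replicate 2 was highest for 12 of the 43 widely expressed members, among them Psma2, Psma6, Psmb2, Psmb6, Psmc1 and Psmd7. It is also the Olig1 day 14 library with 3359 CPM of ganglion cell markers, and results are given without these libraries below.

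**Figure D4:**
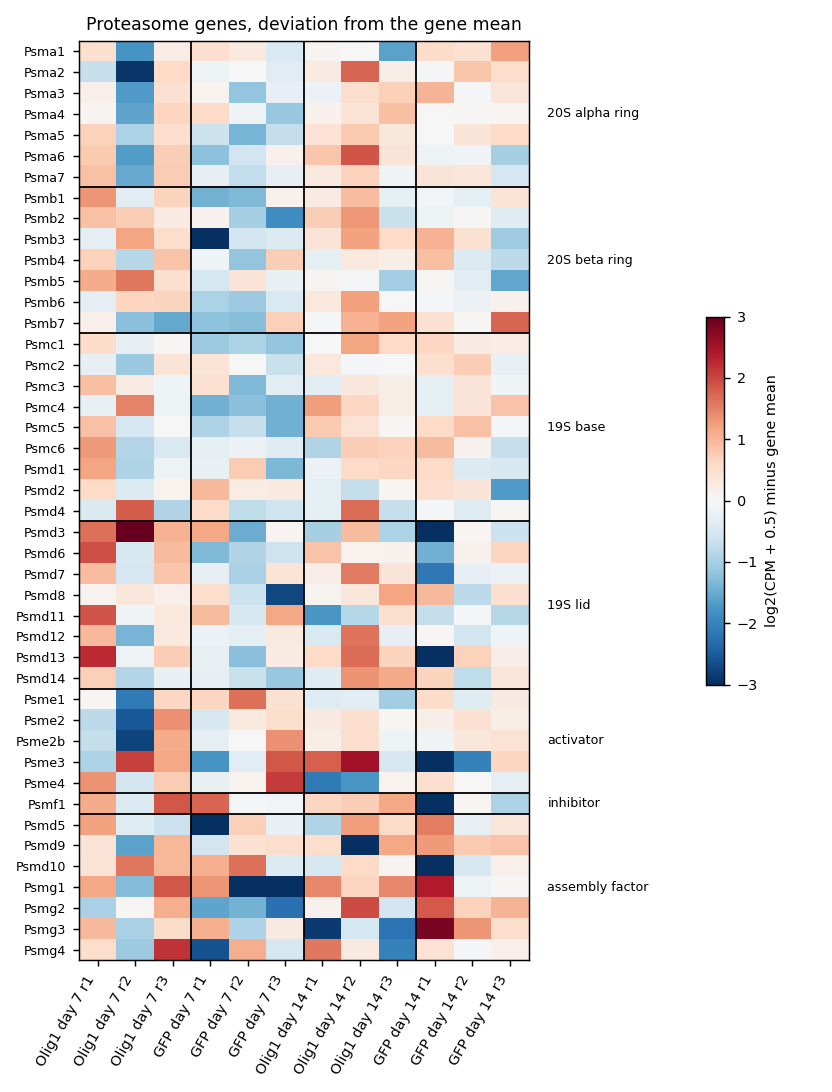
Deviation of each member's log2(CPM + 0.5) from its own mean over the 12 libraries (colour, cut at 3 either way), by class and library, with r for replicate. The alpha ring is low in Olig1 day 7 replicate 2, where Psma2 stands at 43.4 CPM and Psmd3 at 1042 CPM, and Psmc1, Psmc4 and Psmc5 are low in all 3 GFP day 7 libraries.

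The first comparison asked which proteasome genes differ between Olig1 and GFP pools at day 7. No member passed the test over all genes (edgeR quasi-likelihood test, Benjamini-Hochberg adjusted p at most 0.05; smallest adjusted p = 0.200, for Psmc4), where 0.227% of all genes tested did. DESeq2 called 1 member, Psmc4, where it called 6.37% of all genes, edgeR without a filter called Psmc4 alone, where it called 0.871%, and limma voom called 0, where it called 2.73%. Fitted values were mostly positive, in 35 of 45 members, with a median log2 fold change of 0.77 against -0.03 for all genes tested. At an unadjusted p under 0.05 there were 12 members, all higher in Olig1, where 13.9% of all genes reached such a p, 8.95% higher and 5% lower. Among genes in the middle of the members' range of levels, 23.5% of 2532 reached such a p, 411 of them higher and 184 lower. Of the 23 members in that range 5 did (21.7%), all higher. Taken in either direction, the members' share at like level was near the background. The range leaves out the more abundant Psmb2, Psmb3, Psmb6, Psmc1, Psmc4 and Psmc5. The count of 12 was 7 without Olig1 day 7 replicate 2, where 5.12% of all genes were higher and 2.38% lower. It was 6 without GFP day 7 replicate 3 (7.95% and 4.3%). With only the 2 groups of the contrast it was 5 (7.76% and 5.97%). Every Olig1 library lay above every GFP library for 9 members (Psmb2, Psmb3, Psmb5, Psmb6, Psmc1, Psmc4, Psmc5, Psmd6 and Psmg2), or 20.0% of the 45, where 9.4% of all genes had such groups; the reverse held for 0 members and 9.01% of all genes. Leaving out a library can only add to such a count, which was 18 without Olig1 day 7 replicate 2 (15.9% of all genes). At like level, Olig1 lay wholly above GFP for 3 of 23 members (13.0%), with a median log2 fold change of 0.56, against 10.7% of genes, with a median of 0.35. With CPM on TMM sizes, which scale for library composition, 11 members lay wholly above (10.9% of all genes) and 0 below (9.41%). Of the 9 members, 7 were shared. Psmb3 and Psmb5 overlapped on that scale, and Psma5, Psmb1, Psmd13 and Psmd14 did not.

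By class the beta ring had the highest median log2 fold change at day 7, 1.52, with 6 of 7 positive, and it was 0.96 without Olig1 day 7 replicate 2. Among the catalytic subunits, Psmb6 (ENSMUSG00000018286, chromosome 11, 70525367 to 70527858, plus strand, GRCm38) had 511, 970 and 984 CPM in Olig1 libraries, against 324, 291 and 451 CPM in GFP libraries. The groups did not overlap, with a log2 fold change of 1.53 ± 0.51 (SE; edgeR adjusted p = 0.257), which was 0.97 without Olig1 day 7 replicate 2. Psmb5 had 334, 466 and 217 CPM in Olig1 libraries, against 108, 202 and 133 CPM in GFP libraries (1.52 ± 0.61, edgeR adjusted p = 0.290). It was separate between the groups, but narrowly and not with CPM on TMM sizes, and the fold change was 0.73 without Olig1 day 7 replicate 2. A pseudogene, Gm3375, matches 88.4% of the Psmb5 transcript at 98% identity or more, so some reads could belong to either. Psmb7, in the values above, overlapped between the groups (-0.27 ± 1.17), as did Psmb4 (0.51 ± 0.64).

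The structural beta subunits Psmb2 and Psmb3 were also apart in CPM, Psmb3 not on TMM sizes. Psmb2 had 727, 661 and 465 CPM in Olig1 libraries, against 430, 196 and 109 CPM in GFP libraries (1.64 ± 0.59, edgeR adjusted p = 0.268). Psmb3 had 227, 633 and 401 CPM in Olig1 libraries, against 32.4, 191 and 210 CPM in GFP libraries, and its fold change of 1.89 ± 0.73 was 0.96 without Olig1 day 7 replicate 2. The alpha ring had a lower median, 0.33, with 5 of 7 positive. That median moved between 0.05 without Olig1 day 7 replicate 3 and 0.60 without replicate 2, the library low in alpha subunits. Psma7 had 824, 157 and 760 CPM in Olig1 libraries, against 380, 269 and 380 CPM in GFP libraries, so 2 Olig1 libraries lay above and 1 below the whole GFP group (0.79 ± 0.46). All alpha subunits overlapped between the groups at day 7 in CPM, while Psma5 (1.23 ± 0.49) was wholly above on TMM sizes.

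In the base, which unfolds substrates, 7 of 9 members were positive, with a median of 0.92. Psmc4 (Rpt3; ENSMUSG00000030603, chromosome 7, 28041707 to 28050101, minus strand) had 185, 601 and 193 CPM in Olig1 libraries, against 79.2, 89.4 and 79.1 CPM in GFP libraries. It had the smallest p of all members, with a log2 fold change of 2.46 ± 0.70 (edgeR adjusted p = 0.200), which was 1.07 without Olig1 day 7 replicate 2. Psmc1 (Rpt2) had 316, 183 and 227 CPM in Olig1 libraries, against 102, 111 and 94.7 CPM in GFP libraries (1.40 ± 0.47, edgeR adjusted p = 0.257). Its fold change moved little when any 1 library was left out, from 1.27 to 1.58. Psmc5 (Rpt6) had 581, 224 and 320 CPM in Olig1 libraries, against 166, 194 and 117 CPM in GFP libraries (1.34 ± 0.46, edgeR adjusted p = 0.261). Psmc2 (-0.08 ± 0.47) and the ubiquitin-receptor scaffold Psmd2 (-0.22 ± 0.58) were near 0.

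All 8 lid subunits were positive at day 7, with a median of 0.89. Psmd6 (Rpn7) had 277, 51.4 and 140 CPM in Olig1 libraries, against 28.7, 38.6 and 46.6 CPM in GFP libraries (2.06 ± 0.71, edgeR adjusted p = 0.263). The groups did not overlap, although Olig1 replicate 2 came close to the GFP range. Psmd3 had the largest fitted value, 3.995 ± 1.61, and it rested on the library named above, since it was 1.07 without it. The deubiquitinase Psmd14 had 242, 80.3 and 127 CPM in Olig1 libraries, against 125, 92.9 and 66.5 CPM in GFP libraries (0.77 ± 0.59).

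Activators were mostly negative. Of the 5, Psme3 alone was positive, and the median was -0.25, which was -1.47 without Olig1 day 7 replicate 3 and 0.07 without GFP day 7 replicate 3. Psme1 had 135, 29.1 and 199 CPM in Olig1 libraries, against 201, 405 and 179 CPM in GFP libraries (-1.17 ± 0.62, edgeR adjusted p = 0.415), and the value was -0.54 without GFP day 7 replicate 2. Psme2 had 38.3, 11.01 and 172 CPM in Olig1 libraries, against 47.3, 81.9 and 96.3 CPM in GFP libraries, without a clear sign (-0.08 ± 0.73). Psme2b, a retrogene, matches Psme2 over 94.9% of its length, so the reads of these genes may be divided between them arbitrarily. All 7 assembly factors were positive with a median of 0.56, which was 1.05 without GFP day 7 replicate 2. Psmg2, which pairs with Psmg1 to start the alpha ring, had 14.9, 30.6 and 64.0 CPM in Olig1 libraries, against 9.64, 10.8 and 5.91 CPM in GFP libraries (2.23 ± 0.86, edgeR adjusted p = 0.284). Beside these day 7 values, rod markers were lower and ganglion cell markers higher in all Olig1 than in all GFP libraries, as given above; their part in the differences was not tested.

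**Figure D5:**
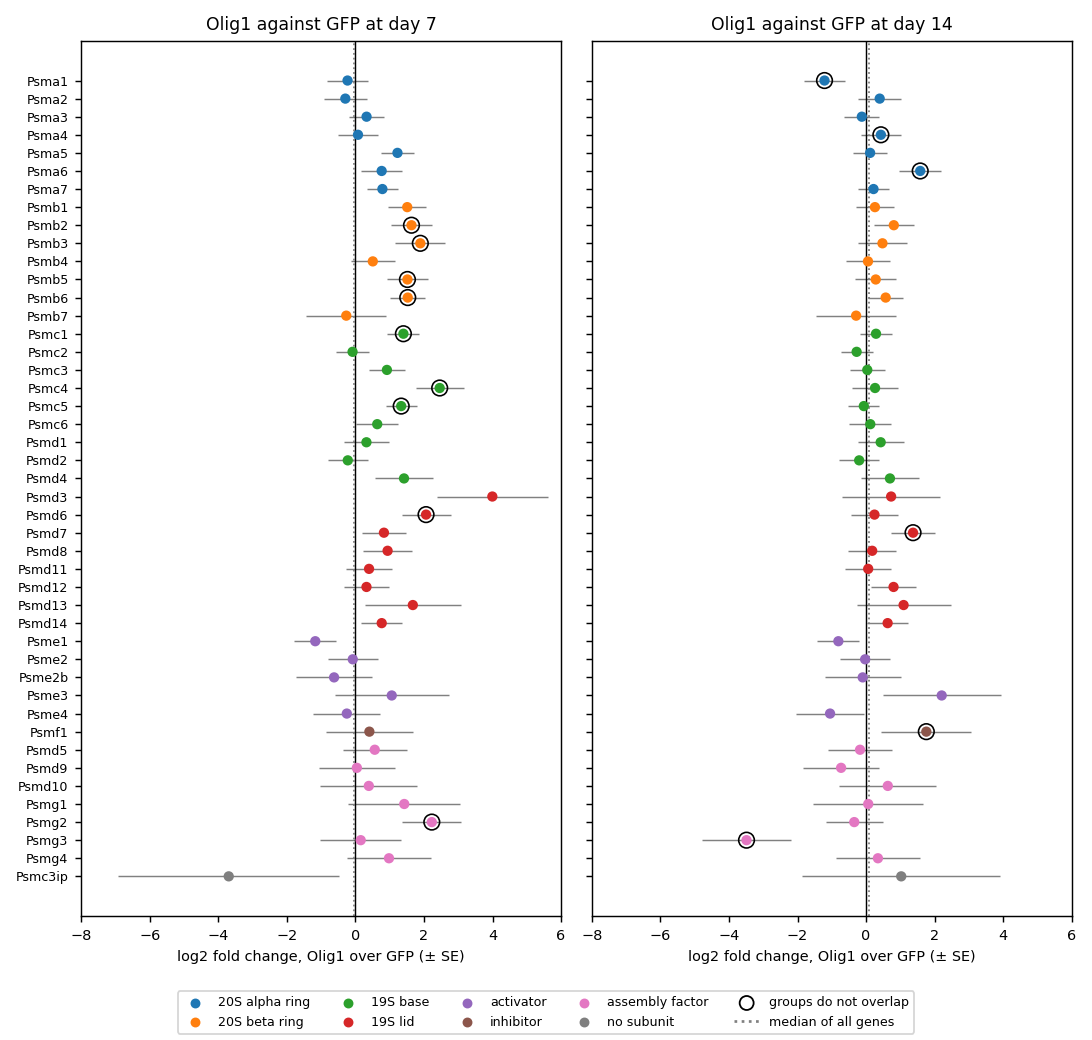
Log2 fold change of Olig1 over GFP (± SE, calculated back from the fold change and edgeR's quasi-likelihood F) for the 45 tested members at day 7 (left) and day 14 (right), coloured by class. Black rings mark members whose 3 Olig1 and 3 GFP libraries do not overlap in CPM on library totals, and the dotted line is the median of all genes tested. At day 7, 35 of 45 members are positive and 9 are ringed; at day 14, 31 are positive and 6 are ringed, and none is ringed at both days.

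At day 14 the Olig1 and GFP libraries overlapped for most members, which does not show that their levels were equal. No member passed the test (edgeR; smallest adjusted p = 0.438), where 0.04% of all genes did. DESeq2 called 1 member, Psmg3, where it called 4.96% of all genes, and 0 members were called by limma voom (0.2% of all genes) or by edgeR without a filter (0.0919%). At an unadjusted p under 0.05 there were 1 member higher and 1 lower, where 5.57% of all genes were higher and 4.86% lower, 10.4% in all. The median log2 fold change was 0.24 with 31 of 45 positive, beside 0.09 for all genes, but it was -0.05 with 19 of 45 positive without Olig1 day 14 replicate 2. Olig1 lay wholly above GFP for 4 members (Psma4, Psma6, Psmd7 and Psmf1; 7.78% of all genes) and wholly below for 2 (Psma1 and Psmg3; 4.12% of all genes), which is near the background. On TMM sizes Psma6 and Psmf1 alone were wholly above, 2 members (7.57% of all genes), and Psma1 and Psmg3 wholly below (4.67%). No member had groups that did not overlap at both days. The class medians were 0.22 for the alpha ring, 0.28 for the beta ring, 0.12 for the base, 0.68 for the lid, -0.10 for activators and -0.18 for assembly factors. Without Olig1 day 14 replicate 2 those of the alpha ring, beta ring, base and lid were -0.04, 0.12, -0.07 and 0.28. All 8 lid subunits were again positive with the full set.

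Psma6 (alpha1) had 240, 503 and 176 CPM in Olig1 day 14 libraries, against 122, 126 and 68.0 CPM in GFP day 14 libraries. Its groups were separate at a log2 fold change of 1.58 ± 0.61 (edgeR adjusted p = 0.438), which was 1.01 without Olig1 replicate 2. Psma1 (alpha6) had the opposite order, with 172, 164 and 53.4 CPM in Olig1 libraries, against 239, 222 and 380 CPM in GFP libraries (-1.21 ± 0.61), and -0.67 without GFP day 14 replicate 3. These subunits of a single ring, present in equal number in the assembled core, thus differed in sign. Psmd7 (Rpn8), the partner of Psmd14 in the lid, had 142, 365 and 161 CPM in Olig1 libraries, against 27.4, 104 and 108 CPM in GFP libraries (1.37 ± 0.65, edgeR adjusted p = 0.487). Its value was 0.78 without Olig1 day 14 replicate 2, and its groups overlapped on TMM sizes. The inhibitor Psmf1 had 44.2, 47.7 and 63.6 CPM in Olig1 libraries, against 0, 29.6 and 14.3 CPM in GFP libraries. It was the member at 0 counts in GFP replicate 1, a library in which 4 widely expressed members were undetected.

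Psmg3, a chaperone that pairs with Psmg4 on the alpha ring, had the smallest p at day 14. It had 0.969, 6.92 and 1.81 CPM in Olig1 libraries, against 76.8, 26.4 and 14.9 CPM in GFP libraries, a log2 fold change of -3.49 ± 1.3 (edgeR adjusted p = 0.438). Every Olig1 library lay below every GFP library, and the value ranged from -4.73 to -2.73 when 1 library was left out. Psmg4 had 47.6, 18.8 and 3.46 CPM in Olig1 libraries, against 21.3, 15.1 and 17.2 CPM in GFP libraries, with groups that overlapped (0.34 ± 1.22). At day 7 Psmg3 showed no such difference, with 20.7, 4.95 and 15.2 CPM in Olig1 libraries, against 22.1, 5.15 and 12.4 CPM in GFP libraries. The catalytic subunits Psmb5 (0.28 ± 0.60), Psmb6 (0.57 ± 0.50) and Psmb7 (-0.29 ± 1.16) overlapped at day 14. Psmb6 had 772, 1451 and 622 CPM in Olig1 libraries, against 611, 554 and 680 CPM in GFP libraries, with replicate 2 of Olig1 far above the rest, and the value was 0.12 without that library. Psmb2 had 654, 970 and 249 CPM in Olig1 libraries, against 354, 401 and 307 CPM in GFP libraries, and Olig1 lay on both sides of GFP. Psme1 had 97.9, 103 and 62.4 CPM in Olig1 libraries, against 189, 101 and 157 CPM in GFP libraries (-0.81 ± 0.61), and Psme2 was nearly level (-0.03 ± 0.73).

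Over the mean of both days, no member passed the test, where 0.654% of all genes did. DESeq2 (7.69% of all genes), limma voom (3.02%) and edgeR without a filter (1.6%) also called 0 members. The smallest adjusted p values of edgeR were 0.164 for Psmb2 (1.22 ± 0.41), 0.166 for Psmb6 (1.05 ± 0.36) and 0.178 for Psmc4 (1.36 ± 0.48), whose value was 0.67 without Olig1 day 7 replicate 2. At an unadjusted p under 0.05 there were 10 members higher and 1 lower, Psme1 (-0.99 ± 0.43), where 8.5% of all genes were higher and 6.38% lower, 14.9% in all. The count was 4 higher and 2 lower without Olig1 day 14 replicate 2, where 7.35% of all genes were higher and 5.61% lower. It was 5 higher and 1 lower without GFP day 14 replicate 2 (9.37% and 5.45%). Without GFP day 7 replicate 1 it was 6 higher and 1 lower (8.35% and 6.12%). At like level, 5 of 23 members (21.7%) had such a p, 4 higher and 1 lower. Among 2532 genes of that level 19.4% had one, 308 higher and 184 lower. Whether the Olig1 difference itself differed between days was tested by the interaction, and again no member passed, where 0% of all genes did. DESeq2 (3.52% of all genes), limma voom (0%) and edgeR without a filter (0.16%) also called 0. The interaction was negative, that is smaller at day 14, in 31 of 45 members, with a median of -0.58 beside 0.07 for all genes. At like level the median was -0.34 for 23 members and -0.32 for genes, so the members were near the background there. Psmc4 (-2.20 ± 0.95, edgeR adjusted p = 0.470) and Psmc5 (-1.40 ± 0.64, 0.485) had the smallest p, and the value of Psmc4 was -0.80 without Olig1 day 7 replicate 2. An unadjusted p under 0.05 was found for 3 members, all negative, where 9.9% of all genes had one, 4.57% positive and 5.33% negative. The count was 0 without Olig1 day 14 replicate 3, where 4.06% of all genes were positive and 5.42% negative at such a p. It was also 0 without GFP day 14 replicate 3 (6.41% and 4.64%). It was 1, negative, without GFP day 7 replicate 1 (4.64% and 5.37%) or replicate 3 (4.23% and 6.46%).

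The GFP day 7 libraries enter both the Olig1 comparison at day 7 and the comparison of days within GFP pools, so the values of the second are given beside those of the first and are no separate evidence. Day 14 against day 7 in GFP pools had no member past the test (edgeR; smallest adjusted p = 0.442), where 0% of all genes passed. DESeq2 called Psmc1, Psmc5 and Psmg2, 3 members, where it called 4.31% of all genes, and limma voom (0.12%) and edgeR without a filter (0.0519%) called 0. The median log2 fold change was 0.68 with 35 of 45 positive, against -0.14 for all genes tested. At an unadjusted p under 0.05 there were 7 members, all higher at day 14, where 4.5% of all genes were higher and 5.77% lower, 10.3% in all. Of the 23 members at like level 2 had such a p (8.70%), all higher. Among 2532 genes of that level 8.33% had one, 144 higher and 67 lower, so the members' share there was near the background. Day 14 lay wholly above day 7 for 7 members (Psma5, Psmb6, Psmc1, Psmc4, Psmc5, Psmd9 and Psmg2), or 15.6% of the 45, where 3.96% of all genes did, and wholly below for 0, where 10.5% of all genes did. At like level, 2 of 23 members lay wholly above (8.70%), with a median of 0.41, against 6.67% of genes, with a median of 0.11. On TMM sizes 12 members lay wholly above (6.68% of all genes), the 7 among them, and 0 below (7.81%). The count of 7 was 15 without GFP day 7 replicate 1 (7.03% of all genes) and 12 without GFP day 14 replicate 3 (8.35%).

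Psmc5 had 477, 586 and 307 CPM in GFP day 14 libraries, against the 166, 194 and 117 CPM in GFP day 7 given above (1.77 ± 0.46, edgeR adjusted p = 0.442). Psmc1 had 331, 256 and 252 CPM at day 14, against 102, 111 and 94.7 CPM at day 7 (1.75 ± 0.47, 0.442). Both ATPases thus stood higher at day 14 in every library than in any at day 7. Psmc4 had 176, 280 and 387 CPM at day 14, against 79.2, 89.4 and 79.1 CPM at day 7 (2.16 ± 0.69). Psmg2 had 108, 48.7 and 60.8 CPM at day 14, against 9.64, 10.8 and 5.91 CPM at day 7 (3.31 ± 0.90), the largest fitted value among the members of this comparison. Psmb5 differed from these, with 158, 125 and 51.9 CPM at day 14, against 108, 202 and 133 CPM at day 7 (-0.22 ± 0.60). Microglia and macrophage markers summed, from low to high, to 25.2, 6849 and 9603 CPM in GFP day 14 libraries, against 13.9, 29.8 and 2811 CPM in GFP day 7 libraries, and B and plasma cell markers reached 132547 CPM in GFP day 14 replicate 3; their part was not tested.

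Within Olig1 pools, day 14 against day 7, no member passed the test (edgeR; smallest adjusted p = 0.377), where 0.0334% of all genes did. DESeq2 (4.18% of all genes), limma voom (1.95%) and edgeR without a filter (0.236%) also called 0. The median was 0.27 with 29 of 45 positive, beside -0.01 for all genes. It was -0.14 without Olig1 day 14 replicate 2, and 0.02 without Olig1 day 7 replicate 2. With DESeq2 size factors the split was 23 of 45 positive, since that scaling moved the median of all genes to -0.19. An unadjusted p under 0.05 was found for 1 member higher and 2 lower, where 4.26% of all genes were higher and 7.52% lower, 11.8% in all. Psma2 (alpha2) had 396, 1107 and 375 CPM at day 14, against 206, 43.4 and 498 CPM at day 7, and the groups overlapped (1.66 ± 0.65, edgeR adjusted p = 0.377). Its value was 0.85 without Olig1 day 14 replicate 2 and 2.53 without Olig1 day 7 replicate 3. Psmb5 had 163, 149 and 76.7 CPM at day 14, against 334, 466 and 217 CPM at day 7, wholly below (-1.46 ± 0.61, edgeR adjusted p = 0.397), and the value was -0.78 without Olig1 day 7 replicate 2. Psmd3 was the other member wholly below, with 17.3, 68.0 and 17.9 CPM at day 14, against 111, 1042 and 72.3 CPM at day 7. In CPM 0 members lay wholly above, where 5.55% of all genes did, and 10.6% of all genes lay wholly below. On TMM sizes Psmd3 overlapped and Psmb5 alone lay wholly below (9.96% of all genes), while Psmb7 lay wholly above (8.05%).

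The interferon-inducible catalytic subunits had lower values in Olig1 than in GFP pools at day 14. Psmb8, Psmb9 and Psmb10 replace Psmb5, Psmb6 and Psmb7 in the immunoproteasome. At day 14 Psmb9 had 11.9, 18.5 and 13.6 CPM in Olig1 libraries, against 147, 49.7 and 71.9 CPM in GFP libraries (-2.60 ± 0.75, edgeR adjusted p = 0.438). Psmb8 had 27.9, 38.7 and 34.0 CPM in Olig1 libraries, against 89.6, 81.9 and 149 CPM in GFP libraries (-1.78 ± 0.69). Psmb10 had 30.5, 36.2 and 59.4 CPM in Olig1 libraries, against 150, 87.4 and 147 CPM in GFP libraries (-1.68 ± 0.67). All 3 lay wholly below in Olig1 pools at day 14, where 4.12% of all genes did, and also on TMM sizes (4.67%). None of the 3 passed the test, where 0.04% of all genes did. Psmb5 and Psmb6 had positive values and overlapped, and the difference between the sets was not tested. By replicate, microglia and macrophage markers summed to 12.8, 3.79 and 4.95 CPM in the same Olig1 libraries, against 25.2, 6849 and 9603 CPM in the GFP libraries. The highest Psmb9 and Psmb10 of the 12 libraries were in GFP day 14 replicate 1, with 25.2 CPM of these markers. The highest Psmb8 was in GFP day 14 replicate 3, and the part of the markers in these values was not tested. At day 7 the 3 genes overlapped between Olig1 and GFP.

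Other genes of the pathway, 28 in all, covered ubiquitin, its carriers and further proteasome-associated factors. In every comparison 0 of them passed the test, where 0% to 0.654% of all genes did. At day 7 their median log2 fold change of Olig1 over GFP was 0.41, with 17 of 28 positive, beside -0.03 for all genes tested. At day 14 it was -0.04, with 14 positive, beside 0.09 for all genes tested. The smallest p at day 7 belonged to Sem1, a small lid subunit (1.41 ± 0.53, edgeR adjusted p = 0.277), and Ubqln2, a ubiquilin that carries ubiquitylated proteins to the proteasome (2.39 ± 0.92, 0.283). At day 14 it belonged to Ecpas, a proteasome adaptor (-2.55 ± 0.81, edgeR adjusted p = 0.438), and to Zfand2a, which binds the proteasome under arsenite stress. Zfand2a was listed with 0, 0 and 0 CPM in Olig1 day 14 libraries, against 0, 2.03 and 0 CPM in GFP day 14 libraries, so no fold is given. Over both days the smallest p belonged to Ubqln2 (2.05 ± 0.64, edgeR adjusted p = 0.138) and Ngly1, the enzyme that removes sugar chains from misfolded proteins (-2.80 ± 1.00, 0.189). Zfand2a and Uba1, the main ubiquitin-activating enzyme, had the smallest p for the difference between days (Uba1 -2.86 ± 1.09, edgeR adjusted p = 0.399) and for day 14 against day 7 in Olig1 pools (Uba1 -2.47 ± 0.80, 0.371). For day 14 against day 7 in GFP pools it belonged to the ubiquitin gene Ubb (1.07 ± 0.32, edgeR adjusted p = 0.442) and Pomp, which matures the beta ring (1.39 ± 0.58, 0.444). Cytosolic ribosomal protein genes, another large set of abundant genes, had a median of 0.72 at day 7 with 64 of 77 positive, close to the 0.77 of the proteasome members. At day 14 against day 7 in GFP pools, however, their median was -0.28, with 26 of 77 positive, against 0.68 for the members.

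RefSeq promoter windows (GRCm38.p6, 250 bases before to 50 after the start) were at hand for 39 of the 47 members, in 42 windows; none was used for Psma8, Psmb1, Psmb2, Psmb7, Psmc3, Psmd3, Psmd7 or Psmg2. Proteasome genes are known to be driven by Nfe2l1 through antioxidant response elements, and many housekeeping promoters carry ETS sites. A total of 12 motifs was searched on both strands. The antioxidant core TGACNNNGC was found in 6 of 42 member windows (14.3%), in Psmb5, Psmb6, Psmc6, Psmd9, Psmd12 and Psme4, against 12.4% of all 32851 windows. The ETS core CCGGAAGT was found in 10 of 42 windows (23.8%), of Psma6, Psmc1, Psmc2, Psmd6, Psmd12, Psmd13, Psme3, Psme4 and Psmg3, against 3.89% of all. The shorter CCGGAAG, which that motif contains, was in 38.1% of member windows against 8.86%, GGGCGG in 54.8% against 35.7% and CCAAT in 33.3% against 37.4%. The ZBTB33 palindrome and GCCATNTTG were each in 1 window, against 0.466% and 2.51% of all, and the NRF1 palindrome in 2, against 0.971%. The longer form of the ZBTB33 palindrome and TGACTCAGC, TGACGTCA and TGACCTTTG were in 0, against 0.234%, 0.454%, 1.79% and 0.478%. Tested members with CCGGAAGT had a median log2 fold change at day 7 of 0.77 (9 members), against 0.51 for 29 without it, and those with TGACNNNGC had 0.48 (6 members), against 0.54 for 32 without. For GGGCGG it was 0.39 with (22 members) and 0.91 without (16). For CCAAT it was 0.77 with (13) and 0.51 without (25), and for CCGGAAG 0.64 with (15) and 0.51 without (23). These differences were not tested. A match is a description of letters and not a site.

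The windows of 4 members are printed 5′ to 3′ on the gene's own strand. Each lay wholly higher in Olig1 than in GFP pools at day 7 in CPM (Psmb5 not on TMM sizes). Each also holds the antioxidant core TGACNNNGC or the ETS core CCGGAAGT. Psmb3, Psmc4 and Psmc5 also lay wholly higher in CPM, but of the motifs searched they hold only CCAAT or GGGCGG and are not printed. Psmb5 (chr14:54617946-54618245, minus strand) and Psmb6 (chr11:70525107-70525406, plus strand) are the catalytic subunits with the antioxidant core in capitals, which reads TGACGTCGC and TGACGGAGC. Psmc1 (chr12:100109952-100110251, plus strand) and Psmd6 (chr14:14120896-14121195, minus strand) have the ETS core in capitals, which in Psmc1 is on the opposite strand and reads ACTTCCGG.
Psmb5: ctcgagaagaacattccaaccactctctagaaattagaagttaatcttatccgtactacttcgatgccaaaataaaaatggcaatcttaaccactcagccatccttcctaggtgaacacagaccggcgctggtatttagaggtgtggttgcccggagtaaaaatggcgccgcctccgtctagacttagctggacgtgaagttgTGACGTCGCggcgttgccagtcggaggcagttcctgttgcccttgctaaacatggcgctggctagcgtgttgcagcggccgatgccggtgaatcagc
Psmb6: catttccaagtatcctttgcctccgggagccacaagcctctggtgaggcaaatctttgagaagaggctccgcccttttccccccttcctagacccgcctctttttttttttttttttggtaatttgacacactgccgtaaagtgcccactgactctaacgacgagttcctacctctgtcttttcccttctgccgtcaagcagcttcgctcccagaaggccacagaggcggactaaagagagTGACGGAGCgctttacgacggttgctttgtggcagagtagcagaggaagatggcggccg
Psmc1: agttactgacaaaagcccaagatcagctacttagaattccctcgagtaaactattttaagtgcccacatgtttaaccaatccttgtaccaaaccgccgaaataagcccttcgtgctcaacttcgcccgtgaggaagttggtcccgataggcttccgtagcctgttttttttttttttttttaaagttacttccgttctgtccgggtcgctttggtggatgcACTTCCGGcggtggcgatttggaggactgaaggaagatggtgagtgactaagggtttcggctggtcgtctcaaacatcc
Psmd6: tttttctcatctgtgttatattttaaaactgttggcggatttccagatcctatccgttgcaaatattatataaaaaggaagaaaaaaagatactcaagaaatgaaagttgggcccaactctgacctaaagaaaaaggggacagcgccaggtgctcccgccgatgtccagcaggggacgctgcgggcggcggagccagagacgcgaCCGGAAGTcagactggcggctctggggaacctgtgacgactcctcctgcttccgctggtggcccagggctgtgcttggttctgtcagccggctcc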

How the data were processed

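Polyadenylated RNA of 12 pools was measured, 3 libraries in each of 4 groups taken from the titles. The authors deposited raw counts of reads per Ensembl gene, made with FastQC, HISAT2 and HTSeq on mm10, per the submitters' processing notes; for versions, annotation and strand setting nothing is stated there. The deposited counts were all whole numbers. The per-sample tables of 4 libraries ended early, so the series table was used, and 0 genes differed between the sources. Of 54232 genes, 54165 were given a symbol from GENCODE M21. No HTSeq summary lines were found. Counts were divided by library totals for CPM and by the exon union for CPM per kb.

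Counts were tested with edgeR 4.0.16 (R 4.3.3; quasi-likelihood, robust, TMM, filterByExpr with min.count 10 for the groups). The 12 libraries entered a single model with 4 group means, with adjusted p over 14985 genes at 0.05. The SE printed with a log2 fold change was calculated back as its absolute value over the square root of the quasi-likelihood F. It therefore restates the test and is no separate estimate of spread. The fitting code was run on simulated counts whose folds were larger than most fitted here, which does not show that smaller folds can be found. Alternatives were DESeq2 1.42.0 (Wald test, size factors), limma 3.58.1 voom with sample weights, other filters, only the groups compared, a replicate block, CPM on TMM sizes, leaving out each library and leaving out GFP day 14 replicates 1 and 3 together. Non-overlap counts, unadjusted counts and class medians without a library were added after seeing the data. BLAST 2.17.0 found near-identical copies (98% identity over 100 bases).

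Named members are the catalytic subunits, Psme1 and Psme2, the 3 smallest p in each Olig1 comparison and the 2 smallest in the others, and the highest and lowest level per class; further members were named after their values were seen. The members, lists and tests were chosen with earlier results of these data known. Exons of Psmd13 share 342 bases with Sirt3, of Psmc3 215 with Slc39a13 and of Psmd9 1849 with Gm26745, all on opposite strands; Psma5 matches the pseudogene Gm8394 over 76.5% and Psma3 matches Gm13835 over 23.4% of the transcript, so these counts are less certain. Paaf1 was not analysed here, nor were spike-ins.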

Additional observations from a re-analysis of the deposited data

How the results depend on the processing

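Members passing the test stayed at 0 in all 6 comparisons by edgeR with DESeq2 size factors, by limma voom, with the stricter filter, with only the groups compared and with any library left out. DESeq2's Wald test called 1 member at day 7 (Psmc4), 1 at day 14 (Psmg3) and 3 between days in GFP pools (Psmc1, Psmc5 and Psmg2), and edgeR without a filter called 1 at day 7 (Psmc4); DESeq2 called 6.37%, 4.96% and 4.31% of all genes in these comparisons, and the cause was not tested. The smallest adjusted p ranged over the alternatives from 0.0164 to 0.474 at day 7, from 0.00564 to 0.908 at day 14 and from 0.00809 to 0.949 between days in GFP pools. The members' median for day 14 against day 7 in Olig1 pools ranged from -0.14 to 0.33 with 1 library left out, that of Olig1 against GFP from 0.52 to 0.81 at day 7 and from -0.05 to 0.40 at day 14. The sign of Psmb7 turned with 1 library left out, in ranges of -0.74 to 0.70 at day 7 and -0.66 to 0.73 at day 14, and was 0.90 at day 14 without GFP day 14 replicates 1 and 3 together. That of Psme2 ranged from -1.47 to 0.36 at day 7 and from -0.17 to 0.10 at day 14. Same-numbered libraries did not deviate together (12 correlations from -0.070 to 0.051), so no pairing by number was used, which says nothing about the unassigned batches; with a replicate block the count of members stayed at 0, and the values of Psmb7 at day 7 and Psme2 at day 14 were 0.22 and 0.06. DESeq2 size factors moved the median of all genes from -0.01 to -0.19 between days in Olig1 pools and from -0.14 to -0.25 in GFP pools. Groups of 3 libraries and a common biological coefficient of variation of 1.351 limit what can be called.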
